A study of Caenorhabditis elegans with 11 samples.

Results

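The glutathione S-transferase (GST) genes of Caenorhabditis elegans described here are gst-24, gst-15 and gst-10. They were taken by name from 6 deposited lists of genes that differed after knockdown of splicing factors, and all 3 were found among the 939 genes of those lists. They fill 5 of the 1106 list entries: gst-24 and gst-15 are listed for N2 and for smg-1, and gst-10 for N2. Every one of the 5 entries is in a list of genes that the authors selected as higher in the pooled knockdowns, so the direction of the pooled difference was fixed by that selection and is not a result. No GST gene is listed for glp-4, so those adults give no value for any of them.

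Glutathione S-transferases are enzymes that join the tripeptide glutathione to reactive electrophiles, such as drugs, plant and bacterial toxins and products of lipid peroxidation. Conjugation is the middle step of detoxification: cytochrome P450 enzymes oxidise a compound, transferases attach glutathione or a sugar to it, and membrane pumps export the conjugate. In worms many GST genes are under the transcription factor SKN-1, the homologue of mammalian Nrf proteins, and the intestine is a main site of detoxification. The enzyme encoded by gst-10 is known to conjugate hydroxynonenal, an aldehyde formed when membrane lipids are oxidised.

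Poly(A)-enriched RNA of whole worms was sequenced as paired-end reads of 73 bp. The N2 strain is wild type, and TR1331 carries smg-1(r861), a mutation in a kinase required for nonsense-mediated mRNA decay; both were put as L1 larvae on bacteria that produce double-stranded RNA and were collected after 24 h at 20 °C, labelled as L3. In each of these strains 1 library came from worms fed a gfp clone, which has no target in them, and 1 each from worms fed a clone against prp-6, prp-8 or prp-31. Their proteins belong to the tri-snRNP, the particle that brings the catalytic core to the spliceosome. The series also holds SS104 worms carrying glp-4(bn2), 5-day adults kept at 25 °C, fed OP50 bacteria for 72 h and then gfp, prp-8 or prp-31 clones for 48 h. Every group is 1 library, so no difference has a replicate check, no test was made, and the spread between worms of a group is unknown. The depth of a library is not given in the files, and no counting interval is given.

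Values are the authors' FPKM, a level corrected for transcript length and library size. The gene models were not given, so the length used for each gene is unknown. Levels and ranks by level set between genes carry that uncertainty. A fold is the ratio of FPKM + 1 in a knockdown to FPKM + 1 after gfp; it understates the change of a low gene. In N2 the target prp-31 had 40.6 FPKM in the gfp library and 25.3 FPKM with its own clone. In smg-1 it had 31.4 and 24 FPKM. It is in the higher list of both strains, with 133 FPKM after prp-6 and 144 after prp-8 in N2, and 95.3 and 122 in smg-1. The genes prp-6 and prp-8 are not listed, so the strength of the 3 knockdowns cannot be compared. In whole worms, a change in the number of cells that hold a transcript and a change of its amount per cell cannot be told apart.

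The genes gst-24 (F37B1.1) and gst-15 (F37B1.4) are neighbours on chromosome II. The deposited interval is 13611156 to 13611342 for gst-24 and 13612999 to 13613152 for gst-15. In the Ensembl annotation of WBcel235 both lie on the minus strand, 403 bases apart, in a run of 9 consecutive GST genes on that strand: gst-20, gst-24, gst-15, gst-14, gst-12, gst-16, gst-19, gst-17 and gst-18. Of these 9, gst-24 and gst-15 are the 2 with a list entry. The gene gst-10 (Y45G12C.2) is on chromosome V, at 2561690 to 2564708, on the plus strand, with no GST gene beside it. No source used here names the build of the deposited intervals, but each starts at an edge of the first exon annotated in WBcel235; the short intervals of gst-24 and gst-15 lie within that exon, and that of gst-10 spans the gene. No annotated gene overlaps any of the 3. GST genes of a cluster have related sequences, and reads shared among them could be divided in any way by the authors' estimates, so the values of gst-24 and gst-15 carry that uncertainty.

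In wild-type larvae gst-24 was the member with the widest range. It had 26.4 FPKM in the gfp library, 263 after prp-6 RNAi, 523 after prp-8 RNAi and 62.4 after prp-31 RNAi. All 3 knockdown libraries were above the gfp library, after prp-8 highest and prp-31 nearest to gfp. The folds were 9.63 after prp-6, 19.2 after prp-8 and 2.32 after prp-31. Among the genes of the N2 higher list, which are all but 66 of the 475 N2 entries, the prp-8 fold had rank 6, the prp-6 fold rank 34 and the prp-31 fold rank 73. The rank by FPKM was 7 after prp-8, 37 after prp-6 and 45 after prp-31, so after prp-8 the transcript was near the top of the list by level as well as by fold.

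The neighbour gst-15 had lower FPKM values. In N2 it had 7.87 FPKM in the gfp library, 20.3 after prp-6, 35.7 after prp-8 and 7.49 after prp-31 RNAi. The prp-6 and prp-8 libraries were above gfp, and the prp-31 library was slightly below it, at a log2 fold of -0.06. Its folds were 2.40 after prp-6 and 4.13 after prp-8. In that list 18 genes (4.4 percent) were below gfp after prp-31.

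The third gene, gst-10, had the highest FPKM of the 3 in the control. It had 64.2 FPKM in the gfp library, 213 after prp-6, 131 after prp-8 and 96 after prp-31 RNAi in N2. All 3 knockdown libraries were above gfp, but here prp-6, not prp-8, was highest. The folds were 3.28 after prp-6, 2.02 after prp-8 and 1.49 after prp-31. By fold gst-10 held a middle place in the list, at rank 239 after prp-6, 173 after prp-8 and 239 after prp-31, whereas by level it had rank 42, 33 and 32.

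**Figure D1:**
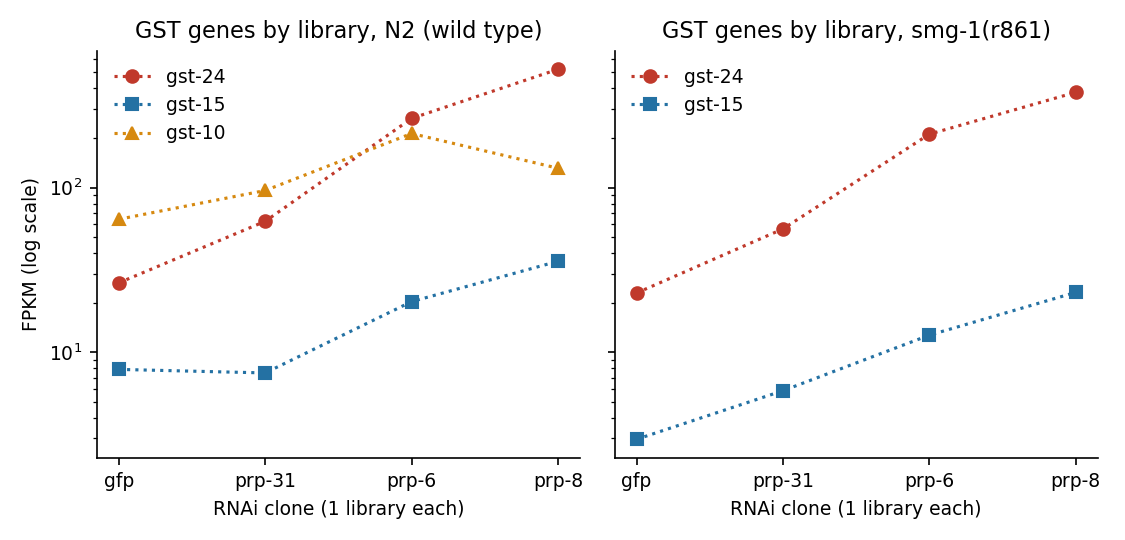
FPKM (log axis) of each GST gene in the gfp, prp-31, prp-6 and prp-8 libraries of N2 (left) and smg-1 (right). Each point is 1 library and the dotted lines join the points of a gene; gst-24 goes from 26.4 FPKM in the gfp library to 523 after prp-8 in N2, while gst-10 is highest after prp-6, at 213 FPKM.

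Counted by clone in N2, all 3 genes were at least 2-fold higher after prp-6, where 72.2 percent of the 475 listed N2 entries were. With prp-8 all 3 were at least 2-fold higher, gst-10 barely so at 2.02-fold, against 36.4 percent of entries. With prp-31 it was gst-24 alone, against 24.8 percent. Taken as a median over the 3 genes, the log2 fold was 1.71 after prp-6, 2.05 after prp-8 and 0.57 after prp-31, beside 1.72, 0.35 and 0.58 over all 475 entries and 2.05, 0.65 and 0.67 over the higher list. With prp-6 and prp-31 the members' medians therefore lay near those of the entries as a whole, and after prp-8 they lay above them. One gene, gst-24, was at least 2-fold higher in every knockdown, as were 2.32 percent of the N2 entries. These calls are near the threshold for some genes: with a pseudocount of 10 FPKM, 2 of the 3 genes were at least 2-fold higher after prp-6, 2 after prp-8 and 0 after prp-31, beside 46.3, 19.8 and 6.95 percent of the N2 entries, and on the scale of the authors' pooled columns the log2 fold of gst-10 after prp-8 was 0.96.

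In the authors' deposited table for N2, which sets the pooled knockdowns against gfp, gst-24 had a log2 fold change of 3.32 and a q-value of 0.0268. The values in the authors' deposited table were 1.44 and 0.2 for gst-15 and 1.16 and 0.235 for gst-10. Of the N2 entries, 7.58 percent had a deposited q-value below 0.05, and of the 3 genes gst-24 was the one that did. The pooled group joins libraries of 3 different clones and is set against the gfp control of a single library. These q-values therefore do not measure the spread between worms of a group. The genes ugt-39 and pgp-8 have the same q-value as gst-24 in N2, so it does not grade them. The pooled gfp column of gst-10 holds 54.3 FPKM, below the 64.2 FPKM of its single gfp library. Over the 435 N2 entries with both values above 0 the pooled gfp value was typically higher than the library's, with a median ratio of 1.21; it was 1.21 for gst-24 and gst-15 and 0.847 for gst-10, and 19 entries had a smaller ratio than gst-10. The deposited fold of gst-10, 2.23, and that of its mean knockdown FPKM over gfp, 2.26, were nonetheless close.

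In smg-1 larvae gst-24 had 22.9 FPKM in the gfp library, 211 after prp-6, 379 after prp-8 and 56.1 after prp-31 RNAi. The order of the libraries was that seen in N2, after prp-8 highest and all knockdowns above gfp. The folds were 8.87 after prp-6, 15.9 after prp-8 and 2.39 after prp-31. Among the 346 genes of the smg-1 higher list these had rank 7, 8 and 11, and by FPKM the gene had rank 16, 13 and 30.

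For gst-15 the smg-1 libraries gave 2.96 FPKM in the gfp library, 12.7 after prp-6, 23.1 after prp-8 and 5.84 after prp-31 RNAi. All 3 knockdowns were above gfp, prp-31 included. The folds were 3.46 after prp-6, 6.07 after prp-8 and 1.73 after prp-31, at rank 29, 39 and 47 of 346.

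Both genes were at least 2-fold higher after prp-6 in smg-1, against 29.3 percent of the 485 smg-1 entries, and both after prp-8, against 61 percent. With prp-31 it was gst-24, against 4.74 percent, and gst-24 was also at least 2-fold higher in every knockdown, as were 3.3 percent of entries. The 485 entries include 139 of the lower list, whereas both genes are in the higher list of 346. Over that higher list the median log2 fold was 0.89 after prp-6, 1.57 after prp-8 and 0.40 after prp-31. The median of the 2 genes was 2.47, 3.30 and 1.02 in the same order. With a pseudocount of 10 FPKM, 1 of the 2 genes was at least 2-fold higher after prp-6, beside 10.7 percent of the smg-1 entries. In the authors' deposited table for smg-1 the log2 fold change was 3.09 for gst-24 and 2.28 for gst-15, each with a q-value of 0.00821. Of the smg-1 entries, 34.4 percent had a deposited q-value below 0.05. The genes prp-31, ugt-39, pgp-1 and pgp-8 share the value 0.00821, so it does not grade them. It rests on the same pooling of clones as in N2. In the same libraries the ribosomal RNA gene rrn-2.1 had 4034 FPKM in the gfp library, 36295 after prp-6, 34627 after prp-8 and 12191 after prp-31, although the RNA was enriched for poly(A). Of the markers looked for, those listed for smg-1 are 1 of 18 intestinal and 2 of 16 germline genes. They are the intestinal vit-6, a yolk protein gene, and the germline htp-1 and syp-1, which act in meiotic chromosome pairing. The level of vit-6 was 0.0844 FPKM in the gfp library, 0.624 after prp-6, 0.715 after prp-8 and 0.286 after prp-31. All these values are below the pseudocount of 1 FPKM. Their order is that of gst-24 and of 76.9 percent of the smg-1 higher list. The summed level of htp-1 and syp-1 was 21.4 FPKM in the gfp library, 9.84 after prp-6, 8.69 after prp-8 and 16 after prp-31, the reverse order. No part of rrn-2.1 or of intestinal or germline RNA in the GST values was tested.

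**Figure D2:**
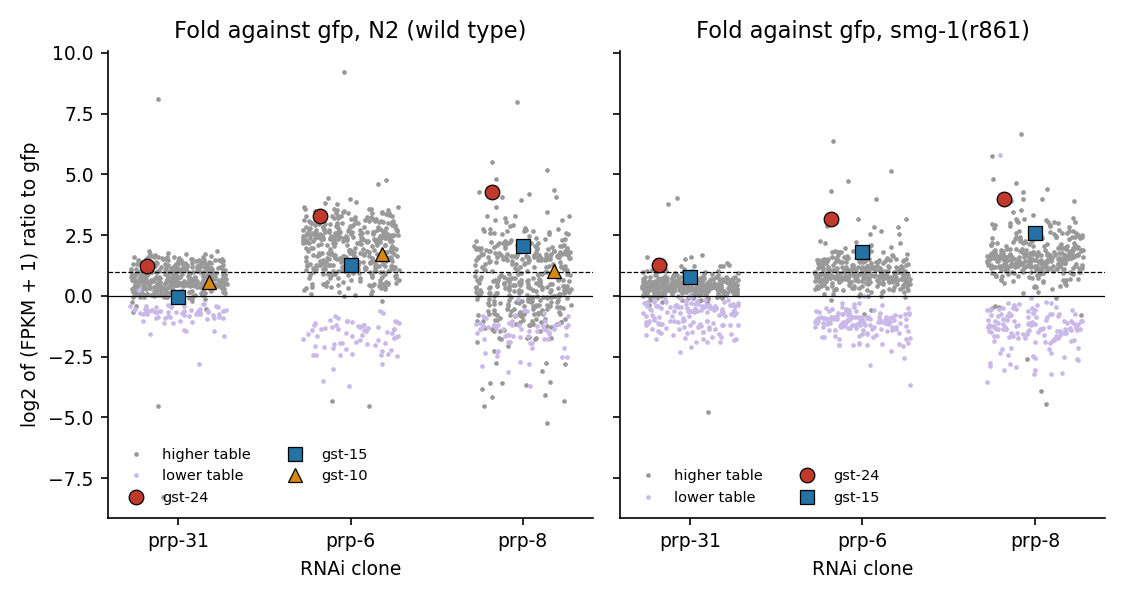
Log2 ratio of FPKM + 1 to gfp (vertical axis) for each RNAi clone in N2 (left) and smg-1 (right). Small points are all listed entries, grey from the higher and violet from the lower list, large symbols are the GST genes and the dashed line marks a 2-fold difference; gst-24 is above that line with every clone in both strains, and gst-15 after prp-31 in N2 is at -0.06.

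Comparing the clones directly needs no gfp library. In N2, gst-24 was 1.99-fold and gst-15 1.72-fold higher after prp-8 than after prp-6 (ratios of FPKM + 1), whereas gst-10 was 1.62-fold lower. A higher value after prp-8 than after prp-6 was found for 156 genes of the N2 higher list, and the median gene was 2.70-fold lower after prp-8. The prp-8 to prp-6 ratio had rank 50 from the top for gst-24, 68 for gst-15 and 185 for gst-10, so gst-10 was also above the list's median. The order prp-8 over prp-6 over prp-31 over gfp, which gst-24 had, was shared by 32.8 percent of the list. The order prp-6 over prp-8 over prp-31 over gfp, which gst-10 had, was shared by 10 percent.

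The listed hypodermal markers, all cuticle collagen genes, were highest after prp-6 in N2. Of the 11 hypodermal markers looked for, rol-6, sqt-1 and sqt-3, all cuticle collagen genes, are listed for N2, with a summed level of 577.7 FPKM in the gfp library, 4409 after prp-6, 720.7 after prp-8 and 877.7 after prp-31. None of the 18 intestinal, 7 muscle or 6 neuronal markers is listed for N2, and of 16 germline markers glh-2 is, at 10.4 FPKM in the gfp library and 2.56, 2.36 and 5.86 after prp-6, prp-8 and prp-31. Taken alone, rol-6 had 138 FPKM in the gfp library and 134 after prp-8. The larval stage each library had reached is known only from the L3 label. What part larval stage, hypodermal RNA or germline RNA has in the order of the clones for the GST genes was not tested.

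In smg-1 the ratio of prp-8 to prp-6 was 1.79 for gst-24 and 1.76 for gst-15, close to the median of 1.51 over the 346 genes of that higher list, of which 309 were higher after prp-8. The order that both genes had, prp-8 over prp-6 over prp-31 over gfp, was that of 76.9 percent of the list. The steps from prp-31 to the other clones were wider for gst-24 than for the list's median gene. It was 3.71-fold higher after prp-6 than after prp-31, at rank 12 of 346 and beside a median of 1.39, and 6.65-fold higher after prp-8 than after prp-31, at rank 16 and beside a median of 2.23.

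**Figure D3:**
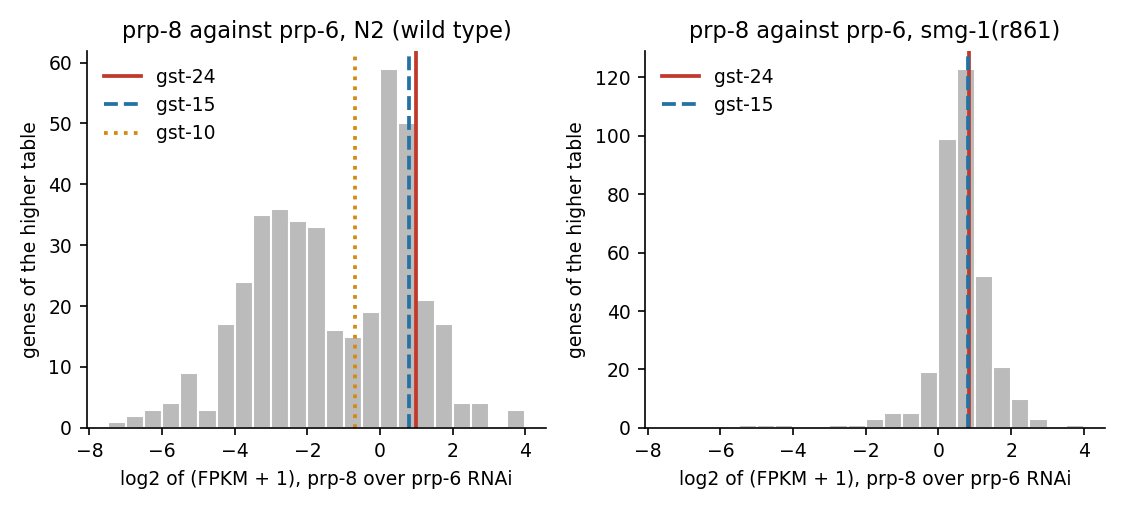
Number of genes of the higher list (vertical axis) by the log2 ratio of FPKM + 1 after prp-8 to that after prp-6 RNAi (horizontal axis), for N2 (left) and smg-1 (right). Vertical lines mark the GST genes: in N2 gst-24 (0.99) and gst-15 (0.78) are on the side of prp-8 and gst-10 (-0.70) on that of prp-6, and in smg-1 gst-24 (0.84) and gst-15 (0.81) nearly coincide.

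The order of the 3 genes by level was not the same in every library. Ratios of 2 genes in 1 library do not depend on how that library was scaled. They do depend on the transcript length used for each gene, which was not given, as do the sums and shares below. In the N2 gfp library the FPKM of gst-10 was 2.43 times that of gst-24, and after prp-31 1.54 times. With prp-6 gst-24 was 1.23 times gst-10, and after prp-8 4.003 times. The summed level of the 3 genes in N2 was 98.4 FPKM in the gfp library, 495.7 after prp-6, 689.3 after prp-8 and 165.9 after prp-31; gst-24 made up 26.8 percent of it after gfp and 75.9 percent after prp-8, while the share of gst-10 was 65.2 percent after gfp and 18.95 percent after prp-8.

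Between the neighbours gst-24 and gst-15 the ratio was wider in every knockdown library than in the gfp library of the strain. The FPKM of gst-24 was 3.35 times that of gst-15 after gfp in N2, 12.9 times after prp-6, 14.7 times after prp-8 and 8.33 times after prp-31. In smg-1 it was 7.72 times after gfp, 16.6 times after prp-6, 16.4 times after prp-8 and 9.61 times after prp-31. The smg-1 gfp library thus began from a wider ratio than the N2 one, and the prp-6 and prp-8 libraries of both strains lay between 12.9 and 16.6 times.

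The comparison of smg-1 with N2 asks whether the levels differ when nonsense-mediated decay is lost. The tables of the 2 strains were made separately, so levels set across them carry any difference in their scaling. The background is the 124 genes found in the higher lists of both strains, whose median log2 ratio of smg-1 to N2 was 0.05 after gfp, -0.17 after prp-6, -0.11 after prp-8 and -0.05 after prp-31. The level of gst-24 was lower in smg-1 with every clone, by log2 ratios of -0.20 after gfp, -0.32 after prp-6, -0.46 after prp-8 and -0.15 after prp-31. Of the 124 genes, 27, 46, 9 and 43 had lower ratios in the same order.

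The level of gst-15 was also lower in smg-1 with every clone, and most so after gfp. It had 7.87 FPKM in N2 and 2.96 FPKM in smg-1 after gfp, a log2 ratio of FPKM + 1 of -1.16. None of the other shared genes had a lower ratio in the gfp libraries. With a pseudocount of 0.1 or of 10 FPKM gst-15 was at rank 2 from the bottom. The shared genes, gst-15 included, were selected by the authors against the gfp values of each strain. The rank is therefore not independent of that selection. With prp-6 the log2 ratio was -0.64, after prp-8 -0.61 and after prp-31 -0.31, and 8, 8 and 23 of the 124 genes were lower.

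The log2 folds of gst-24 against gfp differed little between the strains, by -0.12 after prp-6, -0.27 after prp-8 and 0.05 after prp-31 (smg-1 minus N2). Those of gst-15 were larger in smg-1 by 0.53 after prp-6, 0.56 after prp-8 and 0.85 after prp-31; 9, 14 and 1 of the 124 shared genes had a larger difference. These 3 differences share the gfp library of each strain, so the low gst-15 value in the smg-1 gfp library enters all of them. With a pseudocount of 10 FPKM in place of 1 they were 0.047, -0.0021 and 0.32.

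**Figure D4:**
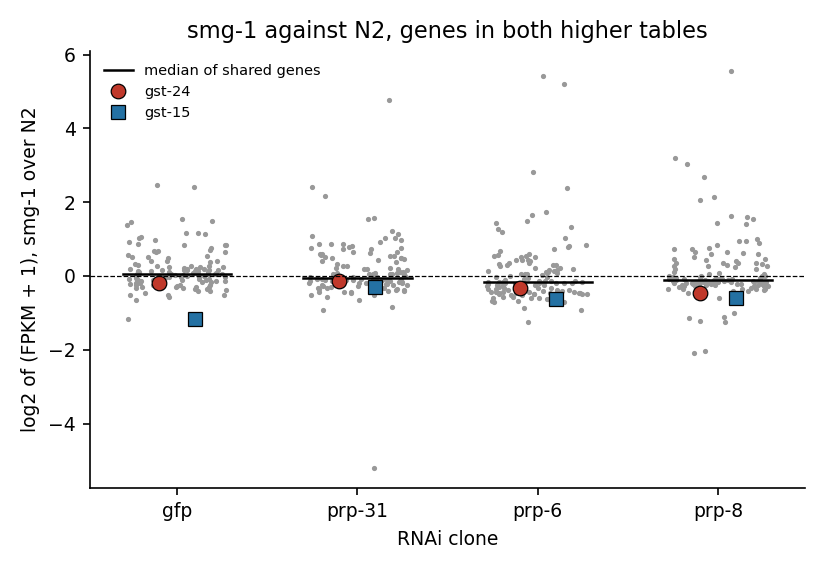
Log2 ratio of FPKM + 1 in smg-1 to that in N2 (vertical axis) for each RNAi clone. Points are the 124 genes in the higher lists of both strains, bars their medians and large symbols gst-24 and gst-15; gst-15 after gfp, at -1.16, is the lowest of the points in that column.

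The likeness of other genes was measured as the root mean square difference of log2 folds, over named genes with no value of 0. For gst-24, over the 6 knockdowns of N2 and smg-1 and among 58 genes, the nearest were pgp-8, at 0.60, clec-52, at 0.95, and atl-1, at 1.19. The gene pgp-8, which encodes a P-glycoprotein of the ABC transporter family, had 0.513 FPKM in the gfp library, 6.9 after prp-6, 22.6 after prp-8 and 1.08 after prp-31 RNAi in N2. In smg-1 its values were 0.789, 9.38, 27.2 and 1.85 FPKM. Both gfp values of pgp-8 are below the pseudocount of 1 FPKM, so its folds and its distance from gst-24 depend on that constant. The C-type lectin gene clec-52 had log2 folds of 2.87 in N2 and 3.91 in smg-1 after prp-8, and atl-1, the homologue of the checkpoint kinase ATR, of 2.61 and 2.80. By Pearson correlation of log2 levels with gst-24, pgp-8 had rank 24, clec-52 rank 22 and atl-1 rank 1 of the 58 genes.

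For gst-15, over the same 6 knockdowns, the nearest genes were the F-box gene fbxa-158, at 0.33, gadr-6, at 0.43, and the DEAD-box helicase gene ddx-23, at 0.46. With prp-8 fbxa-158 was 4.51-fold higher in N2 and 5.85-fold in smg-1, beside 4.13-fold and 6.07-fold for gst-15. The widest gap was after prp-31 in smg-1, where fbxa-158 was 1.06-fold and gst-15 1.73-fold higher, and by Pearson correlation of log2 levels fbxa-158 had rank 36 of 58. For gst-10, over the 3 knockdowns of N2 and among 193 genes, they were the cadherin gene cdh-5, at 0.17, the RNA polymerase subunit gene rpb-5, at 0.22, and the nuclear hormone receptor gene nhr-25, at 0.25. The folds of cdh-5 were 3.48 after prp-6, 1.82 after prp-8 and 1.27 after prp-31. All these folds share the gfp library of their strain.

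Of the GST family, 49 genes named gst, gsto or gstk are in the annotation, and 4 have an entry in any list. The fourth is gst-3 (chromosome IV, interval 10140084 to 10140243), listed as higher in smg-1. It had 4.84 FPKM in the gfp library, 9.04 after prp-6, 18.9 after prp-8 and 6.78 after prp-31 RNAi. The order of its libraries was that of gst-24 and gst-15, and its folds were 1.72 after prp-6, 3.401 after prp-8 and 1.33 after prp-31. The share of all annotated genes with a list entry was not counted. Neither 4 of 49 genes nor 2 of the 9 in the chromosome II run is therefore read as many or few.

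Other detoxification genes were taken by name: cytochrome P450s, UDP-glucuronosyltransferases, short-chain dehydrogenases, efflux pumps, glutathione and thioredoxin genes, oxidative stress enzymes and regulators. With gst-3 but without the 3 members, these lists held 8 entries for N2, 6 in the higher and 2 in the lower list. In N2, 5 of the 8 were at least 2-fold higher after prp-6, 5 after prp-8 and 1 after prp-31, beside 72.2, 36.4 and 24.8 percent of all N2 entries. At least 2-fold lower were 2, 2 and 0 of them, beside 13.5, 21.9 and 2.74 percent. For smg-1 there were 11 entries, 5 higher and 6 lower. Of these, 3 were at least 2-fold higher after prp-6, 5 after prp-8 and 1 after prp-31, beside 29.3, 61 and 4.74 percent of all smg-1 entries, and 5, 5 and 0 were at least 2-fold lower, beside 16.1, 21 and 11.5 percent. Neither skn-1 nor its negative regulator wdr-23 is listed in any strain, nor is any of the glutathione synthesis, glutaredoxin and thioredoxin genes looked for, so no value was analysed for them here.

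The cytochrome P450 genes, which encode oxidising enzymes, had 3 entries for N2, all in the higher list, as are 86.1 percent of N2 entries: cyp-37B1 had 2.12 FPKM in the gfp library, 13.2 after prp-6, 6.76 after prp-8 and 4.53 after prp-31, cyp-35A3 was 2.59-fold higher after prp-6 and 2.29-fold after prp-8, and cyp-34A4 was 3.59-fold higher after prp-6 and at a log2 fold of -0.03 after prp-8. The libraries of cyp-37B1 and cyp-35A3 had the order of those of gst-10. No P450 gene is listed for smg-1, and for glp-4 adults 6 are, all in the higher list, which holds 39.7 percent of the glp-4 entries, and at least 2-fold higher in 2 cases after prp-8 and 2 after prp-31, against 10.3 and 12.3 percent of the 146 glp-4 entries. Of the 6, cyp-35B2 was 1.78-fold higher after prp-8 and 2.31-fold after prp-31.

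UDP-glucuronosyltransferases, which attach a sugar where GSTs attach glutathione, were in both the higher and the lower lists. In all, 2 of 4 listed were in the higher list of N2, beside 86.1 percent of all N2 entries, and 1 of 4 in that of smg-1, beside 71.3 percent. In N2 ugt-35 had 1.46 FPKM in the gfp library, 0.0618 after prp-6, 0.206 after prp-8 and 0.424 after prp-31, and in smg-1 ugt-29 had 143, 58.9, 73.5 and 79.7 FPKM. Both were below gfp with every clone, as was ugt-26, at 55.7, 19.7, 22.7 and 37.2 FPKM in N2 and 86.2, 28.1, 22.6 and 56.3 FPKM in smg-1. The gene ugt-39 had 5.74 FPKM in the gfp library, 16.6 after prp-6, 46.4 after prp-8 and 8.49 after prp-31 in smg-1, in the order of gst-24. Its N2 values, chosen for print after they were seen, were 2.43, 11.1, 29 and 3.61 FPKM.

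Of the 5 efflux pumps listed for smg-1, 3 were in the higher list, beside the same 71.3 percent. Besides pgp-8, pgp-1 had 2.16 FPKM in the gfp library and 7.79, 8.49 and 5.4 FPKM in the prp-6, prp-8 and prp-31 libraries, while pgp-5, which had 41.1 FPKM in the gfp library, had 18.5, 19.2 and 32.1 FPKM. The glutathione peroxidase gene gpx-7, which uses glutathione to reduce peroxides, was lower in smg-1, at 18.7 FPKM in the gfp library and 6.23, 3.39 and 13.6 FPKM after prp-6, prp-8 and prp-31.

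**Figure D5:**
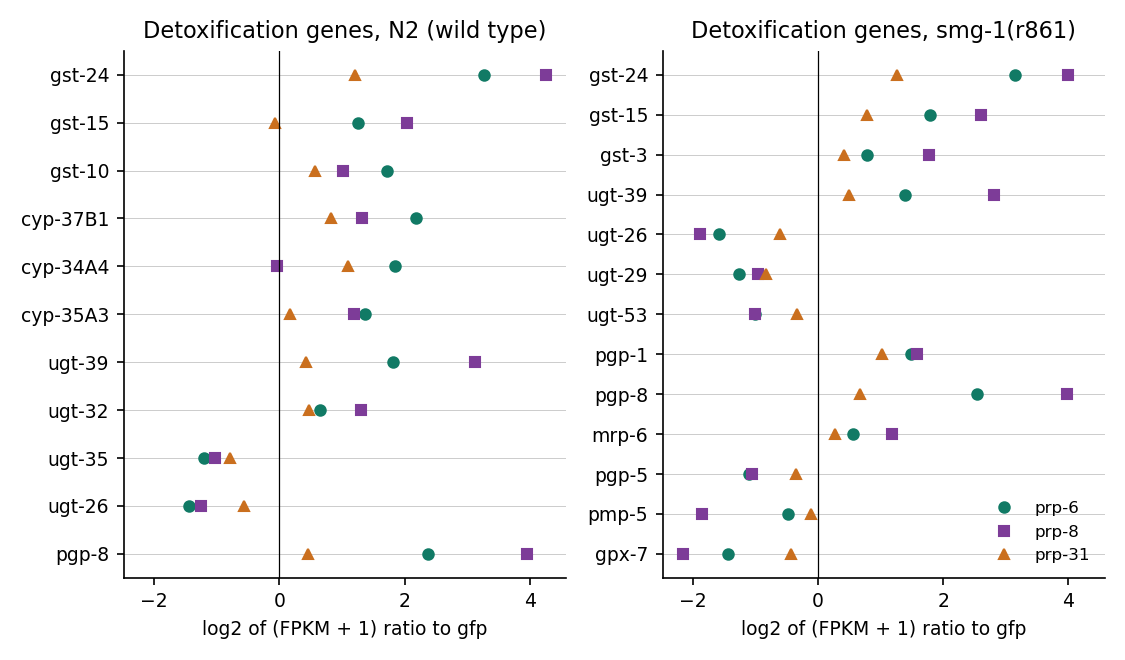
Log2 ratio of FPKM + 1 to gfp (horizontal axis) of every listed gene of the GST and other detoxification lists, for N2 (left) and smg-1 (right), with 1 symbol for each RNAi clone. Of the genes shown, gst-24 and pgp-8 have the highest prp-8 values in both strains (4.26 and 3.96 in N2, 3.99 and 3.98 in smg-1), and ugt-26 is below gfp with every clone. The gfp values of pgp-8, 0.513 FPKM in N2 and 0.789 FPKM in smg-1, are below the pseudocount. Its ratios therefore understate its change more than those of gst-24 do.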

How the data were processed

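Poly(A)-enriched RNA of whole worms was measured in 11 libraries of 3 strains, 1 per group; groups were taken from the titles. The titles of the glp-4 libraries say L3, while the stage field says adult, which was followed; the 2 tables with their values are named for glp-1, but the columns and sample labels say glp-4, which was used. Cuffdiff and Cufflinks are named in the submitters' processing notes. Their versions, the genome build, the aligner and the gene models were not given in the sources used here. Each of the 6 tables holds, per the file headers, FPKM of single libraries and of the pooled knockdowns and gfp control, the authors' log2 fold change, P-value and q-value. The deposited test statistic of 5 tables, a score, entered no result. The tables hold genes the authors selected, with a P-value of at most 0.01 in their deposited comparison, so genes outside them have no value. An FPKM of 0 can be a failed estimate; no value of the 3 GST genes is 0.

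From the single-library FPKM, log2 ratios of FPKM + 1 were computed, with ranks and shares among all entries of a strain. No test was made, for lack of replicates. Alternatives were pseudocounts of 0.1 and 10 FPKM, the scale of the pooled columns, a minimum mean of 1 FPKM and leaving out a knockdown. The members and lists were chosen with earlier results of these data known; named genes are the members, listed GST genes, up to 3 entries per other list and strain with the largest smallest change, and the 3 genes most like each member. Of these, some are given as counts; ugt-39 in N2 falls outside that rule. Exon edges of Ensembl release 115 (WBcel235) met an interval edge in 714 of 1106 entries. Software was matplotlib 3.10.9, pandas 2.3.3 and numpy 2.4.6 under Python 3.11.15. The fold code returned folds planted with its own formula, a check of arithmetic that does not cover the assignment of columns to libraries.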

Additional observations from a re-analysis of the deposited data

Results flagged for a closer look

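With prp-31 RNAi the sign of the gst-15 difference from gfp was not the same in the larval strains. The log2 fold was -0.06 in N2 (7.87 FPKM with gfp and 7.49 with prp-31) and 0.79 in smg-1 (2.96 and 5.84 FPKM), a difference of 0.85. Each value rests on 1 library per group, and the difference was not tested. The 2 prp-31 libraries lie nearer to each other, at 7.49 and 5.84 FPKM, than the 2 gfp libraries, at 7.87 and 2.96 FPKM. Which library the difference comes from cannot be told with 1 library per group and strains whose tables were made separately.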

How the results depend on the processing

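No paired analysis was possible because every group has 1 library. No alternative changed the sign of any of the 15 log2 folds against gfp. A pseudocount of 10 FPKM took 4 of them below a 2-fold difference, and the scale of the pooled columns 1. With that pseudocount the number of genes at least 2-fold higher was 0 with prp-31 in N2, against 1, and in smg-1 it was 1 with prp-6 and 1 for the mean of the knockdowns, against 2 each; the larger constant shrinks the folds of low genes by construction. Without the prp-31 library, the number at least 2-fold higher in every knockdown was 3 in N2 and 2 in smg-1, against 1 in each. By its construction this count cannot fall when a library is left out. Without prp-6 or prp-8 the number was 1 in each strain. For a left-out library, and for the mean of the knockdowns, the share over all entries was not counted. The smg-1 minus N2 difference of the gst-15 log2 fold was 0.71 after prp-6, 0.75 after prp-8 and 1.03 after prp-31 RNAi at a pseudocount of 0.1 FPKM, and 0.047, -0.0021 and 0.32 at 10 FPKM. In the gfp ratio of smg-1 to N2, gst-15 had rank 1 from the bottom of the 124 shared genes at a pseudocount of 1 FPKM and rank 2 at 0.1 and at 10 FPKM, a check chosen after seeing the data. Ranked by Pearson correlation of log2 levels instead, 1 of the 3 nearest genes remained for gst-24 (atl-1), 0 for gst-15 and 1 for gst-10 (cdh-5). The unknown depth limits the low values most, that of gst-15 in the smg-1 gfp library above all.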
